A study of Homo sapiens with 10 samples.

Results

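The comparison set Panc1 cells that carried the EAPP mutant of KLF11 against Panc1 cells that carried its Δ486 mutant. Its members were the 2 arrays labelled with transduction of KLF11-EAPP and the 2 arrays labelled with KLF11-486, out of 10 arrays in the series. The empty vector arrays were not part of the difference. Panc1 is an established epithelial line from a human pancreatic carcinoma. All groups received adenovirus at a multiplicity of infection of 150, and RNA was collected after 48 h and hybridized to Affymetrix Human Gene 1.0 ST arrays, which report 1 value for each transcript cluster, the set of probes assigned to a gene. The other groups, again 2 arrays each, carried the empty vector alone, KLF11 without mutation, or A347S, a mutant decoupled from WD40 proteins. The methods and the extract protocol describe the duplicates as technical arrays of RNA pooled from separate cultures, whereas the sample titles number them as biological replicates. The p-values therefore measure the spread between arrays and may leave out the spread between cultures. The model is limited to 1 cell line in which epitope-tagged KLF11 was overexpressed from a viral promoter on top of the cells' own KLF11.

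KLF11 is a zinc finger transcription factor of the Krüppel-like family that binds GC-rich promoter sequences and can either repress or activate the genes it occupies. It recruits chromatin regulators through separate surfaces. An N-terminal helix binds the scaffold Sin3, which brings in histone deacetylases, and the prolines introduced in EAPP break this contact. A C-terminal region couples KLF11 to HP1 and to the methyltransferases that place the repressive mark on histone H3 lysine 9, and the Δ486 deletion removes it. Side by side, the mutants therefore ask how gene expression differs between cells given a KLF11 decoupled from Sin3 and cells given a KLF11 decoupled from HP1. In both groups the cells' own KLF11 was still present.

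The transduced gene itself read at a similar level in both groups. KLF11 read 8.78 and 8.68 on the EAPP arrays and 8.72 and 8.83 on the Δ486 arrays, on the log2 scale of all values given here. The groups overlapped, and the difference of EAPP minus Δ486 was -0.04 (95% interval -0.40 to 0.32, limma adjusted p = 0.901), which leaves room for no more than a 1.5-fold difference either way. The cluster read 8.37 and 7.75 with empty vector. Whether its probes read the transduced copy, and how much protein each group held, cannot be seen in these values. The study describes a Western blot in which wild type and mutant proteins were overexpressed to a similar degree. Ductal epithelial markers, 8 measured, lay between 4.94 and 13.12 on the 4 arrays, and KRT19 alone among them passed the test. Markers of acinar, endocrine, immune, endothelial and fibroblast cells, 24 in all, lay between 3.37 and 8.19, and 0 passed. ACTA2, the smooth muscle actin of activated fibroblasts, had the smallest p of these, at 6.5 and 6.41 with EAPP against 6.92 and 6.86 with Δ486 (adjusted p = 0.0558). Limma's unadjusted p was under 0.05 for 2 of the 24, as was that of the methods' t-test, which left 0 after adjustment. The arrays of either group correlated across clusters at 0.996, and array medians lay between 6.81 and 6.87 over the series.

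EAPP and Δ486 cells differed at 684 of the 20961 clusters with a gene symbol, 3.26% of those tested. A cluster is counted here as higher or lower where limma's p, adjusted by Benjamini-Hochberg, was under 0.05 and the difference at least 1.5-fold, 0.585 on the log2 scale. With EAPP 286 were higher (1.36%) and 398 lower (1.90%), and on all 684 both EAPP arrays lay beyond both Δ486 arrays, an arrangement that 52.5% of all clusters showed. The median was 0.69 among the higher and -0.77 among the lower clusters, against -0.012 over all clusters tested. The adjusted p alone was passed by 3148 clusters, 15.0%. A 2-fold difference was reached by 97 clusters, of which 76 were lower with EAPP. At the other end, 18013 clusters, or 85.9%, had a 95% interval that lay wholly inside 1.5-fold, and 2264 could be placed in neither class. The share that passed was 0.496% in the dimmest quartile of clusters and 5.34% and 5.19% in the 2 brightest. The split between directions moved with the scaling: after each array was centred on its median there were 392 higher and 335 lower clusters. It moved as well without the second Δ486 array (376 higher, 319 lower) and without the second EAPP array (356 higher, 345 lower).

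**Figure D1:**
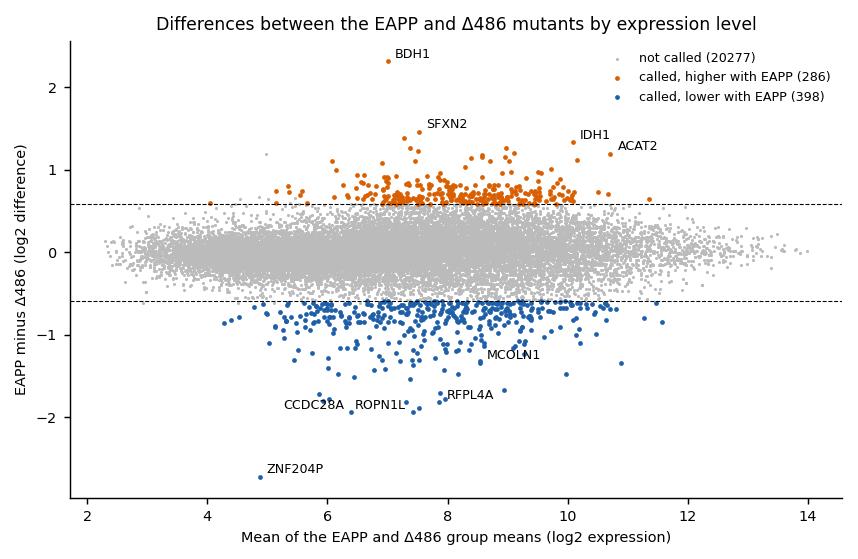
Difference of EAPP minus Δ486 (y, log2) against the mean of the 2 group means (x, log2 expression) for 20961 transcript clusters. Orange points are the 286 clusters higher with EAPP, blue points the 398 lower with EAPP, grey points the rest, and dashed lines mark 1.5-fold. BDH1 stands apart at the top and ZNF204P at the bottom, and few coloured points lie below a mean of 5.47, the edge of the dimmest quartile.

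The 12 largest differences in favour of EAPP included enzymes of metabolism and transporters, along with a membrane skeleton protein, a mitotic regulator and a calcium-binding protein. BDH1, the mitochondrial dehydrogenase that interconverts the ketone bodies 3-hydroxybutyrate and acetoacetate, read 8.06 and 8.27 with EAPP and 5.84 and 5.87 with Δ486. It was 4.96-fold higher with EAPP (log2 difference 2.31, standard error 0.10, adjusted p = 2.8e-05), and was the only gene on this side past a log2 difference of 1.5. The Δ486 values of BDH1 lay in the range of endocrine markers (3.38 to 5.96), which are foreign to the line. The size of its fold is therefore uncertain. IDH1, the cytosolic isocitrate dehydrogenase that makes NADPH, read 10.70 and 10.80 against 9.40 and 9.44, a difference of 1.33 (standard error 0.08, adjusted p = 0.000119). The EAPP arrays were thus far above the Δ486 arrays for both genes, with little spread within a group. SFXN2, a sideroflexin of the mitochondrial membrane, read 8.22 and 8.27 against 6.81 and 6.77 (1.46, standard error 0.11). EPB41, the founding protein 4.1 that ties spectrin and actin to the membrane, read 7.98 and 7.96 against 6.57 and 6.61 (1.38, standard error 0.10). KYAT3, an aminotransferase that acts on kynurenine, read 8.01 and 7.99 against 6.72 and 6.77 (1.26, standard error 0.08). The other genes among the 12 largest were ALDOC, an aldolase of glycolysis (1.22), ADI1 of the methionine salvage pathway (1.20), ACAT2, the cytosolic thiolase that starts sterol synthesis (1.19), PIMREG, a mitotic regulator (1.18), SLC2A1, the glucose transporter GLUT1 (1.15), IVD, which oxidizes isovaleryl-CoA from leucine (1.14), and RCN2, a calcium-binding protein of the endoplasmic reticulum (1.12). All 12 kept their call whichever array was left out.

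The largest differences the other way included genes of flagella and cilia, a zinc finger pseudogene and several poorly described genes. ZNF204P read 3.56 and 3.46 with EAPP, near the bottom of the scale, and 5.90 and 6.56 with Δ486. The log2 difference was -2.72 (standard error 0.27, adjusted p = 0.000455). Its EAPP values lay in the range of markers of cell types foreign to the line, such as the endocrine ones (3.38 to 5.96). There a signal could not be told from background, so no fold is given and the place of ZNF204P in the order is uncertain. Both EAPP arrays also lay in that range for CCDC28A, DNAI3, KIAA0825 and RADX, so the sizes of those differences are uncertain too. ROPN1L, a relative of ropporin found in the sperm flagellum, read 6.41 and 6.52 against 8.35 and 8.44, a difference of -1.94 (standard error 0.11, adjusted p = 0.000116). DNAI3, an axonemal dynein intermediate chain, read 5.10 and 4.94 against 6.69 and 6.95 (-1.80, standard error 0.12). No array of one group reached the range of the other in any of these genes. RFPL4A, known from oocytes, read 7.22 and 6.69 against 8.56 and 8.98 (-1.82, standard error 0.19), and its probes may also read a near-identical copy of the gene. SLC38A9, the lysosomal amino acid transporter that signals arginine to TOR, read 7.18 and 6.85 against 8.57 and 8.88 (-1.71, standard error 0.16). The other 7 of the 12 largest were CCDC28A (-1.94), LMBRD2 (-1.81), KIAA0825 (-1.78), FAM174A (-1.78), MORN2 (-1.67), ZNF284 (-1.54) and RADX, a protein of stalled replication forks that binds single-stranded DNA (-1.51). All 12 kept their call whichever array was left out.

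**Figure D2:**
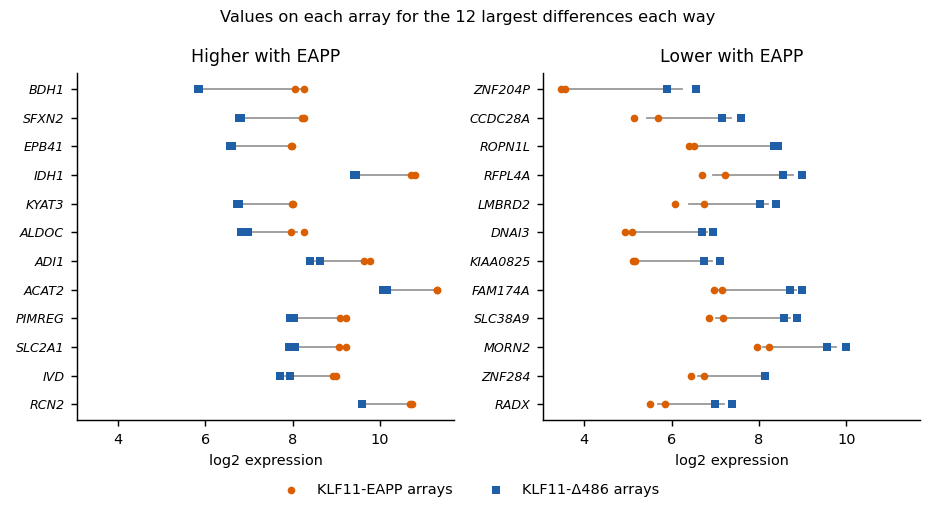
Log2 expression (x) on each of the 2 EAPP arrays (orange circles) and 2 Δ486 arrays (blue squares) for the 12 largest differences in each direction (y, genes in order of size), with a grey line between the group means. In all 24 genes the circles lie wholly to one side of the squares, and the lower set includes dim genes such as ZNF204P at 3.56 and 3.46 with EAPP.

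GC-rich letters of the kind KLF11 binds were counted in the promoters of both sets. The window read was 250 bases before to 50 after the RefSeq start of each gene on GRCh38.p14, and the letters searched were CCCCGC and CCCCAC on either strand, counting overlapping copies. The 250 bases before the start are printed for 5 of the largest differences in favour of EAPP and 2 of the largest the other way, 5′ to 3′ along each gene, with the letters in capitals, since they show both promoters dense in these letters and promoters without them. EPB41 holds 6 copies in the stretch printed, SFXN2 and KYAT3 hold 3 each, BDH1 and ROPN1L hold 2 each, and IDH1 and DNAI3 hold 0.
BDH1 promoter, chr3:197573344-197573593, minus strand: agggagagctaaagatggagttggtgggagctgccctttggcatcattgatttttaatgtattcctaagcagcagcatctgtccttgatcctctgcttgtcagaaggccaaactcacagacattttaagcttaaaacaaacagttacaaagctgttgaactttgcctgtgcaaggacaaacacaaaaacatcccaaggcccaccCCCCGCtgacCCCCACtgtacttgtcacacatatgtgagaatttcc
SFXN2 promoter, chr10:102714386-102714635, plus strand: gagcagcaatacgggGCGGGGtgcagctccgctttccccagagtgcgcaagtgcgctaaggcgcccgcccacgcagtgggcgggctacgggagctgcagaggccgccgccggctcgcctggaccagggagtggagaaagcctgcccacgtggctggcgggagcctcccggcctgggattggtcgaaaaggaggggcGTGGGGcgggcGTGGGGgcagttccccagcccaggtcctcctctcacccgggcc
EPB41 promoter, chr1:28886850-28887099, plus strand: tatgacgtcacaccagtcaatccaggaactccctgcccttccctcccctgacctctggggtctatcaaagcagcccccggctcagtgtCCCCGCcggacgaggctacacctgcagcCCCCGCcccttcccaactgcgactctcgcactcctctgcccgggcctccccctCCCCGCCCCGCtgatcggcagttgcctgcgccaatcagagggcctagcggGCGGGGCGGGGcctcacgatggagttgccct
KYAT3 promoter, chr1:88992630-88992879, minus strand: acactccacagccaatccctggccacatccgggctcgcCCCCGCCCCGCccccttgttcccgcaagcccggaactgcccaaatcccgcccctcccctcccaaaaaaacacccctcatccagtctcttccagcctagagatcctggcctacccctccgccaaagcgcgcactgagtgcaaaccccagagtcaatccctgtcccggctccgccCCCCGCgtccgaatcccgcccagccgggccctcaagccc
IDH1 promoter, chr2:208254459-208254708, minus strand: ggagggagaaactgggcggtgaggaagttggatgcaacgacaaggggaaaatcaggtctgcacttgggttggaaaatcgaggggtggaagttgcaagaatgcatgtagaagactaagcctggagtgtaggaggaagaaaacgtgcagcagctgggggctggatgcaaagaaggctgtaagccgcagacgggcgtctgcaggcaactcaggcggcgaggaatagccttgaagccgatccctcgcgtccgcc
ROPN1L promoter, chr5:10441629-10441878, plus strand: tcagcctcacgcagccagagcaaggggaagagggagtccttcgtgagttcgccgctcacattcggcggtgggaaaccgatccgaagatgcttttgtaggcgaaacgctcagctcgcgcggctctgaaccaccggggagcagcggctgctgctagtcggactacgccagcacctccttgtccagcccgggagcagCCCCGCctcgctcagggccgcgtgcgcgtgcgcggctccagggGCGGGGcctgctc
DNAI3 promoter, chr1:85062077-85062326, plus strand: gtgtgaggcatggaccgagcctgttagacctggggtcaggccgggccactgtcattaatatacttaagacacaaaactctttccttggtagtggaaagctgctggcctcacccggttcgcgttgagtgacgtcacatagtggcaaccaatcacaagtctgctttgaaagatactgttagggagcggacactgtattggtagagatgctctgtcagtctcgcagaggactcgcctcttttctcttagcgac
A window was found for 220 of the 259 genes higher with EAPP, 314 of the 364 lower and 14211 of all 18378 tested, with 1 cluster per gene. The letters occurred in 199 of the 220 windows of genes higher with EAPP, or 90.5% (95% Wilson interval 85.8% to 93.7%). Among genes lower with EAPP they occurred in 179 windows, or 57.0% (51.5% to 62.4%), and among all tested genes in 68.6%. The first share thus lay above that of all tested genes, and the second below it. The intervals treat genes as independent draws, so they describe the shares and are no test. Of all 27305 windows in the reference table, 56.4% held them. GC content moved with the letters: its median was 71.0% in windows of genes higher with EAPP, 60.0% in those lower and 63.0% over all. Expression level moved with them as well, and the shares of genes higher with EAPP, lower with EAPP and tested were 91.5%, 57.7% and 77.0% among the brighter clusters, split at the median level. Among the dimmer they were 81.0%, 54.5% and 58.7%, where 36 of 66 genes lower with EAPP held the letters, so the gap between lower and all tested genes was narrower there. The part that GC content or expression level plays in these shares was not tested. A match of letters is a description and does not show that KLF11 sits there.

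Genes that break down branched-chain amino acids, propionate and lysine were among those higher with EAPP. Per gene, 3.39% of all genes tested were called, 1.41% higher and 1.98% lower with EAPP, and the median difference over all clusters was -0.012. Of 32 members measured in this list 8 were higher, 1 was lower, and the median was 0.25. Besides BDH1 and IVD, the higher members were BCKDHB, a subunit of the branched-chain ketoacid dehydrogenase, at 9.58 and 9.49 against 8.55 and 8.57 (0.97, standard error 0.08), and ALDH6A1, which acts on methylmalonate semialdehyde from valine, at 6.58 and 6.68 against 5.49 and 5.57 (1.10, standard error 0.10). The Δ486 values of ALDH6A1, like those of BDH1, lay in the range of endocrine markers, so the size of its difference is uncertain. PCCB, ACAT1, BCAT2 and MCCC1 completed the set, with differences of 0.79, 0.59, 0.71 and 0.62. The leucine, isoleucine and valine steps held 6 of the 8. MCEE, the epimerase that follows propionyl-CoA carboxylase, was lower, at 6.43 and 6.58 against 7.08 and 7.54 (-0.80, standard error 0.15), though not without the second Δ486 array (-0.58). With each array left out in turn 6 to 11 members were higher, and 6 to 10 under the other scalings: ACAT1 and MCCC1 fell short of the fold after cyclic loess (0.56 and 0.58) and without the first EAPP array (0.54 and 0.55).

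In pyruvate entry and the tricarboxylic acid cycle 5 of 35 members were higher with EAPP (14.3%, against 1.41% over all genes). None was lower, and the median was 0.12. IDH2, the mitochondrial partner of IDH1, read 10.16 and 10.28 against 9.31 and 9.12 (1.01, standard error 0.09), and PC, the carboxylase that turns pyruvate into oxaloacetate, read 7.56 and 7.45 against 6.79 and 6.83 (0.69, standard error 0.08). KGD4 and PDHB were higher by 0.99 and 0.64, KGD4 not without the first Δ486 array (adjusted p = 0.0619). MPC1, of the carrier that brings pyruvate into mitochondria, stood at 0.49 (adjusted p = 0.0366), below the fold threshold. The mitochondrial solute carriers had 3 of 41 members higher (7.32%) and 1 lower (2.44%, against 1.98% over all genes). SLC25A1, which exports citrate to the cytosol, read 9.10 and 9.24 against 8.46 and 8.27 (0.81, standard error 0.09), and SLC25A33, a pyrimidine nucleotide carrier, was higher by 0.63. SLC25A14, an uncoupling protein of the same family, read 7.17 and 7.12 against 7.86 and 8.07 (-0.82, standard error 0.10), so the family held differences of either sign. After cyclic loess or quantile scaling 3 carriers were lower, and 2 were without the second Δ486 array or the first EAPP array.

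The respiratory chain had 0 of 60 members higher and 2 lower (3.33%), near the shares of 1.41% and 1.98% over all genes, so the counts set it apart in neither direction. COX6A1, a subunit of cytochrome oxidase, read 11.13 and 11.21 with EAPP against 11.84 and 11.72 (-0.61, standard error 0.09), and NDUFA5, a subunit of complex I, read 9.82 and 9.66 against 10.24 and 10.53 (-0.64, standard error 0.11). Both were close to the fold threshold. COX6A1 no longer reached it without the first Δ486 array (-0.55) or the first EAPP array (-0.57), nor after median centring (-0.57), and NDUFA5 without the second Δ486 array (-0.50) or the second EAPP array (-0.56). The median was -0.14, 50 of 60 members lay below zero, and 56 had intervals inside 1.5-fold.

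Lipid synthesis genes that were called were higher with EAPP, with 1 exception. In cholesterol synthesis 4 of 22 members were higher (18.2%, against 1.41% over all genes) and 0 lower. The median was 0.26, and 20 members lay above zero. ACAT2 read 11.30 and 11.30 against 10.16 and 10.06. LSS, which closes the sterol ring system, read 8.75 and 8.98 against 8.04 and 8.06 (0.82, standard error 0.12), and DHCR7, the last enzyme before cholesterol, read 10.84 and 10.88 against 10.21 and 10.05 (0.73, standard error 0.09). TM7SF2, a sterol reductase, was higher by 0.70. SREBF1 and SREBF2, the transcription factors that drive this pathway, passed the adjusted p but not the fold, at 0.38 and 0.40. Fatty acid and triglyceride synthesis had 4 of 27 members higher (14.8%) and 1 lower (3.7%, against 1.98% over all genes), with a median of 0.22. ELOVL1, an elongase of very long chains, read 9.07 and 9.10 against 8.28 and 8.30 (0.80, standard error 0.07), and ACACA, the carboxylase that commits acetyl-CoA to fat, read 8.08 and 8.0 against 7.33 and 7.35 (0.70, standard error 0.08). FASN, the synthase itself, and LPIN1, a phosphatidate phosphatase, were higher by 0.64 and 0.66. GPAM, the mitochondrial acyltransferase that begins triglyceride assembly, was the exception at 7.24 and 7.07 against 7.85 and 8.03 (-0.78, standard error 0.10).

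Oxidation of fatty acids and of aldehydes, and the uptake and splitting of glucose, also held members higher with EAPP. Beta-oxidation had 3 of 30 members higher and 1 lower: CPT1A, the carnitine transferase that admits fatty acids to mitochondria, read 9.86 and 10.03 against 9.09 and 9.06 (0.86, standard error 0.09), and HSD17B4, a peroxisomal enzyme, read 9.42 and 9.34 against 8.32 and 8.52 (0.96, standard error 0.10). EHHADH, also peroxisomal, was higher by 0.67, though not without the first EAPP array (0.59, adjusted p = 0.0558), and ETFDH, which feeds electrons to ubiquinone, was lower (-0.73, standard error 0.12). The aldehyde dehydrogenases ALDH7A1 (0.96) and ALDH1B1 (0.90) joined ALDH6A1 as 3 higher members of 28 in amine and aldehyde breakdown, with 0 lower. Glycolysis had 3 of 23 higher and 0 lower. SLC2A1 read 9.06 and 9.22 against 8.06 and 7.92, and ALDOC 8.25 and 7.97 against 6.81 and 6.97. PFKL, the liver type phosphofructokinase, stood near the threshold at 0.59 and fell short of it without the second EAPP array (0.55), after cyclic loess (0.55) and after quantile scaling (0.57). KYAT3 was the single member called of 16 in the kynurenine list, in which all 9 kynurenine pathway enzymes had intervals inside 1.5-fold. The protein 4.1 list had EPB41 and ADD1, an adducin (0.75, standard error 0.10), higher of 17 members, and 0 lower.

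Ciliary genes that were called lay on the other side. Of 49 genes for transport along and the base of the cilium, 9 were lower with EAPP and 0 higher, with a median of -0.19. The share lower was 18.4%, against 1.98% over all genes, and 30 of the 49 had intervals inside 1.5-fold. IFT20, the particle subunit that carries cargo from the Golgi, read 6.93 and 7.05 against 8.0 and 8.27 (-1.14, standard error 0.13). TMEM67, a receptor-like protein of the transition zone, read 7.99 and 7.81 against 8.74 and 8.85 (-0.90, standard error 0.10). The 4 arrays fell into 2 separate pairs in each case. ARL6, the small GTPase that recruits the BBSome coat, read 7.56 and 7.16 against 8.24 and 8.69 (-1.11, standard error 0.17). CLUAP1, an intraflagellar transport protein, stood at -0.60 and fell short of the fold without the second Δ486 array (-0.55), without the second EAPP array (-0.57) and after median centring (-0.56). IFT80, IFT56, BBS12, BBS9 and BBS5 completed the 9.

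Of 67 genes of the axoneme, the moving core of motile cilia and sperm tails, 10 were lower with EAPP and 0 higher, with a median of -0.09. The share lower was 14.9%, against 1.98% over all genes, and 45 of the 67 had intervals inside 1.5-fold. ROPN1L and DNAI3 were the largest. DNAAF11, which helps to assemble dynein arms, read 4.46 and 4.49 against 5.41 and 5.74 (-1.10, standard error 0.14), CFAP69 read 4.69 and 4.91 against 5.73 and 6.46 (-1.30, standard error 0.21), and SAXO2 read 5.42 and 5.82 against 6.57 and 6.98 (-1.16, standard error 0.21). For DNAI3, DNAAF11, CFAP69 and SAXO2 both EAPP arrays lay in the range of endocrine markers (3.38 to 5.96), so these sizes are uncertain. CFAP206, CFAP43, DRC3, CFAP300 and CFAP44 were the others. Axoneme proteins other than dyneins gave 8 of the 10, among 38 measured. Of the 7 transcription factors that switch on motile cilia 0 passed both thresholds, while 1, higher with EAPP, passed limma's adjusted p alone. An unadjusted p under 0.05 was reached by 2 with limma and by 2 with the methods' t-test. The median of the 7 was 0.04. With each array left out in turn the lists held 7 to 12 and 8 to 10 lower members and 0 higher ones. BBS5, CFAP300 and CFAP44 were among those that lost the call without the second Δ486 array (adjusted p = 0.0623, 0.0521 and 0.114). Earlier results of these data had drawn attention to both ciliary lists, so these counts are no independent support for one another.

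**Figure D3:**
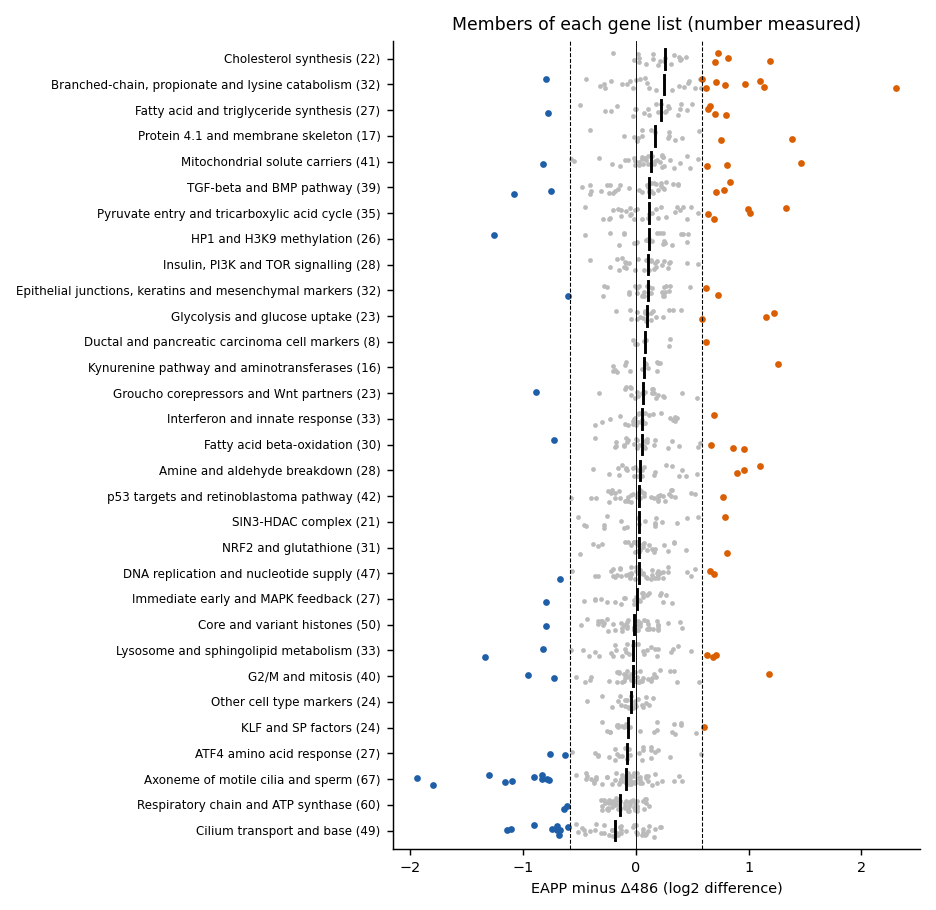
Difference of EAPP minus Δ486 (x, log2) for each measured member of 31 gene lists (y, number measured in brackets), ordered by median. Black bars are medians, dashed lines 1.5-fold, orange and blue points the members called higher and lower with EAPP, and grey points the rest. The orange points gather in the lists of amino acid, lipid and carbon metabolism, and the ciliary lists hold 19 blue points and 0 orange ones.

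The chromatin partners themselves were called at about the share of all genes (3.39%), 4.76% in the Sin3 list, 3.85% in the HP1 list and 4.17% among KLF and SP factors, or 1 gene in each. Of 21 measured genes of the Sin3 and deacetylase complex 1 was called: ING2, a subunit that reads methylated histone H3, at 8.52 and 8.34 with EAPP against 7.48 and 7.81 with Δ486 (0.79, standard error 0.11). HDAC1 read 12.23 and 12.24 against 11.74 and 11.63, a difference of 0.55 that passed the adjusted p (0.0013) but not the fold. SIN3A stood at 0.36 (adjusted p = 0.0147) and SIN3B at 0.23 (0.118). Among 26 genes of HP1 and of histone H3 lysine 9 methylation 1 was called, the nucleosome-binding protein HMGN5, at 6.46 and 5.98 against 7.32 and 7.63 (-1.26, standard error 0.16). The HP1 genes CBX1, CBX3 and CBX5 all had intervals inside 1.5-fold. The methyltransferase EHMT2 stood at 0.46 and the heterochromatin protein MPHOSPH8 at 0.45, both past the adjusted p and short of the fold. Of 24 KLF and SP factors SP1, which shares GC-rich sites with KLF11, was the single one called, at 9.18 and 9.13 against 8.63 and 8.47 (0.60, standard error 0.14). It was lost without the second Δ486 array (0.52, adjusted p = 0.103), without the first EAPP array (0.57, 0.0871), without the second EAPP array (0.63, 0.0664), after cyclic loess (0.56) and after quantile scaling (0.57). KLF10, the closest relative of KLF11, stood at 0.40 (adjusted p = 0.0116), with an interval inside 1.5-fold. Among 23 Groucho corepressors and Wnt partners TLE4 was lower (-0.89, standard error 0.14), and among 50 histone genes H4C8 was lower (-0.80), though not without the second EAPP array (-0.56), while 3 histone genes were lower without the first EAPP array. Without the first Δ486 array the Sin3 list had 2 members higher and 1 lower, and without the second EAPP array the HP1 list had 2 lower. Histone genes are near-identical in sequence, so the value of H4C8 may include others.

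In the TGF-beta and BMP pathway, 3 of 39 members were higher with EAPP (7.69%, against 1.41% over all genes) and 2 lower (5.13%, against 1.98%). The receptor TGFBR1 read 8.11 and 8.12 against 7.33 and 7.23 (0.83, standard error 0.08), the receptor BMPR2 8.82 and 8.75 against 7.96 and 8.18 (0.71, standard error 0.11), and the transducer SMAD2 8.77 and 8.62 against 7.93 and 7.91 (0.78, standard error 0.08). BAMBI, a decoy receptor that blocks the pathway, read 6.07 and 5.80 against 6.94 and 7.10 (-1.08, standard error 0.14). ID2, a helix-loop-helix inhibitor that BMP signals induce, read 7.30 and 6.61 against 7.71 and 7.70 (-0.75, standard error 0.21). Its call was lost without the second EAPP array (-0.41, adjusted p = 0.174), either Δ486 array (0.116 and 0.115), either wild type array (0.0519) or either A347S array (0.058). Of 10 receptors measured, TGFBR1 and BMPR2 were the 2 called, and the other 8 did not pass the adjusted p. Of the 11 ligands 0 were called, where limma's adjusted p alone gave 4 (1 higher, 3 lower). Its unadjusted p gave 7 and the methods' unadjusted t-test 6. HBEGF, an EGF receptor ligand, was lower (-0.80, standard error 0.11) and was the single call of 27 in the immediate early list. In the insulin, PI3K and TOR list 0 of 28 were called, where limma's adjusted p alone gave 5, its unadjusted p 10 and the methods' unadjusted t-test 10. Without the second EAPP array, or after median centring, 1 was higher. AKT1 had the smallest p there, at 9.85 and 9.88 against 9.43 and 9.41 (0.45, adjusted p = 0.00324). MAVS, the mitochondrial adaptor of RNA sensing, was the single call of 33 in the interferon list (0.69, standard error 0.11) and fell short of the fold without the second Δ486 array (0.58). The 22 interferon-induced genes gave 0 calls, against 4 by limma's unadjusted p and 2 by the methods' t-test.

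The lists of cell cycle, stress and epithelial genes held 1 to 3 called members each. Over all genes 1.41% were higher and 1.98% lower. The shares were 2.5% and 5.0% in mitosis, 4.26% and 2.13% in replication, and 6.25% and 3.12% in the epithelial list. In the p53 list 2.38% were higher, in the NRF2 list 3.23%, and in the ATF4 list 7.41% were lower. With so few calls, single genes are no result about a list. KIF20A, a kinesin of late mitosis, read 9.33 and 9.14 with EAPP against 10.15 and 10.24 with Δ486 (-0.96, standard error 0.08). CENPE, a kinetochore kinesin, was lower by the same test (-0.73, standard error 0.14) but not without the second Δ486 array (-0.62, adjusted p = 0.0504) or the second EAPP array (-0.52). With PIMREG higher, 3 of 40 mitotic genes were called. Of 47 replication genes the polymerase subunits POLD2 (0.69) and POLE (0.66) were higher and GINS3 of the replicative helicase lower (-0.67). RBL1, the retinoblastoma relative p107, was the single call of 42 in the p53 and retinoblastoma list (0.77, standard error 0.08). TPMT, which methylates thiopurines, was the single call of 31 in the NRF2 and glutathione list (0.81, standard error 0.13). In the ATF4 amino acid response 0 of 27 were higher and 2 lower. These were the cystine transporter SLC7A11 (-0.76) and the cystathionine lyase CTH (-0.63), and neither passed without the second Δ486 array (adjusted p = 0.0768 and 0.186) or without the second EAPP array (0.0689 and 0.196). CTH also lost its call with the replicate block (adjusted p = 0.0544), after median centring (0.0594) and without either A347S array (0.0584), which enter only through the shared variance. Among 32 epithelial and mesenchymal genes alpha-catenin CTNNA1 (0.73, standard error 0.09) and the keratin KRT19 (0.62) were higher and the claudin CLDN1 (-0.60) lower. KRT19 lost its call without the first EAPP array (0.62, adjusted p = 0.0576), the second EAPP array (0.63, 0.057) or the second Δ486 array, where it stood at 0.39. CLDN1 lost its call without the second Δ486 array (-0.53, adjusted p = 0.065) or the second EAPP array (-0.47, 0.0693), and after median centring (-0.56). Without the first EAPP array 4 mitotic genes were lower, and without the second Δ486 array 3 genes of the p53 and retinoblastoma list were higher.

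Lysosomal genes moved both ways. Of 33 genes of the lysosome and of sphingolipid metabolism 3 were higher and 2 lower with EAPP. These were 9.09% and 6.06%, against 1.41% and 1.98% over all genes. The 16 lysosomal proteins among them had 1 higher and 2 lower, with a median of -0.11. The 17 sphingolipid enzymes had 2 higher and 0 lower, with a median of 0.06. MCOLN1, the calcium channel of the lysosomal membrane, read 7.92 and 7.79 against 9.17 and 9.23 (-1.34, standard error 0.08, adjusted p = 0.000116), and GLA, the alpha-galactosidase, read 9.73 and 9.63 against 10.47 and 10.52 (-0.82, standard error 0.08). NPC2, which hands cholesterol out of the lysosome, read 9.77 and 9.60 against 8.97 and 8.98 (0.71, standard error 0.08). The ceramide synthase CERS5 and the sphingosine phosphate lyase SGPL1 were higher by 0.63 and 0.68, CERS5 not without the second EAPP array (0.56) and SGPL1 not without the first (0.57). For MCOLN1, GLA and NPC2 the groups did not overlap.

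The other 3 groups showed where these differences lay in the series. For each called cluster the EAPP mean was set at 0 and the Δ486 mean at 1, and the mean of each other group was placed on that scale. This is a description, since the called clusters were picked by the difference that sets the scale. Empty vector had a median position of -0.07 (quartiles -0.22 and 0.08) and was nearer to EAPP in 674 of 684 clusters. Wild type KLF11 had a median of 0.87 (0.74 and 0.98) and was nearer to Δ486 in 657. A347S had a median of 1.17 (1.07 and 1.27), and in 585 clusters it lay beyond Δ486. Over most called clusters the EAPP arrays thus stood with empty vector, and the Δ486 arrays between wild type KLF11 and A347S. In IDH1 the EAPP arrays lay between empty vector and Δ486, with 11.21 and 11.19 on the empty vector arrays, 9.78 and 9.77 with wild type and 9.21 and 8.99 with A347S. In MCOLN1 the EAPP arrays read as empty vector did, with 7.94 and 7.88, 9.07 and 9.01, and 9.23 and 9.28 in the same order.

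**Figure D4:**
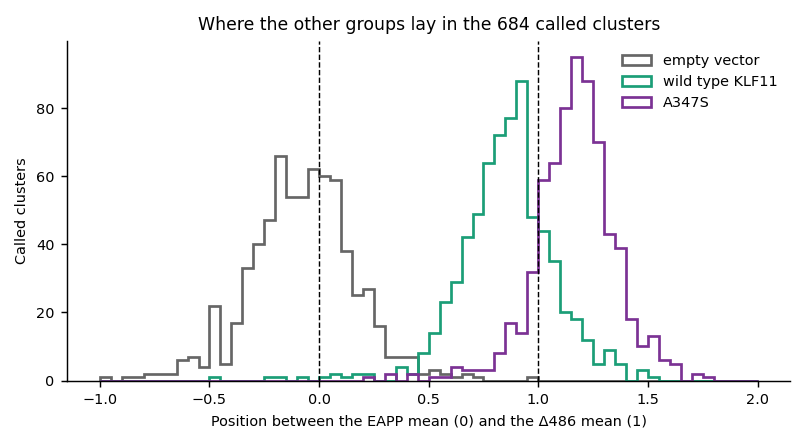
Number of called clusters (y) by the position of a group's mean between the EAPP mean (0) and the Δ486 mean (1) (x, no unit), for empty vector (grey), wild type KLF11 (green) and A347S (purple), over 684 clusters. Empty vector centres on -0.07, wild type on 0.87 and A347S on 1.17.

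In a minority of clusters EAPP or Δ486 stood alone. In 94 called clusters both EAPP arrays lay beyond all 8 other arrays, 47 on each side, and in 21 both Δ486 arrays did. The call already sets EAPP and Δ486 apart, and the same count was not made over all clusters tested. Whether these numbers are high therefore cannot be told. BDH1 was of the first kind: empty vector read 7.03 and 6.92, wild type 5.65 and 5.90 and A347S 5.99 and 6.01, all below both EAPP values. ALDH6A1 was too, with 5.87 and 5.75 on the empty vector arrays, 5.10 and 4.90 with wild type and 5.56 and 5.74 with A347S, against 6.58 and 6.68 with EAPP. Both read higher with EAPP than with any other construct. Empty vector was nearer to Δ486 than to EAPP in 10 called clusters. They were BDH1, ALDH6A1, DHTKD1 and MCCC1, which are enzymes of amino acid and ketone breakdown, and CLDN1, ID2, SLC7A11, TAFA1, TUBE1 and ZNF573. The position of empty vector was near the midpoint in BDH1 (0.51), SLC7A11 (0.54) and ZNF573 (0.5), against 0.74 in ALDH6A1 and 0.99 in CLDN1. In 9 of these 10 the EAPP arrays lay beyond all others, ID2 being the exception. Of the second kind was CALCOCO1, an autophagy receptor chosen after its values were seen, at 7.96 and 8.06 with Δ486 against 6.96 and 6.67 with EAPP (-1.19, standard error 0.10). A347S came close to Δ486 in CALCOCO1, at 7.94 and 7.88, while wild type read 7.69 and 7.59 and empty vector 7.09 and 7.03. ZDHHC14, a palmitoyltransferase chosen in the same way, read 6.83 and 6.87 with Δ486 and no lower than 7.17 elsewhere (0.59, standard error 0.07), and fell short of the fold after cyclic loess (0.57) and without the first Δ486 array (0.58). CA2, a cytosolic carbonic anhydrase also chosen in this way, read 6.62 and 6.57 with Δ486, against 5.77 and 5.91 with EAPP and at most 6.21 elsewhere (-0.76, standard error 0.08). Both EAPP values of CA2 lay in the range of endocrine markers (3.38 to 5.96), so the size of its difference is uncertain.

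**Figure D5:**
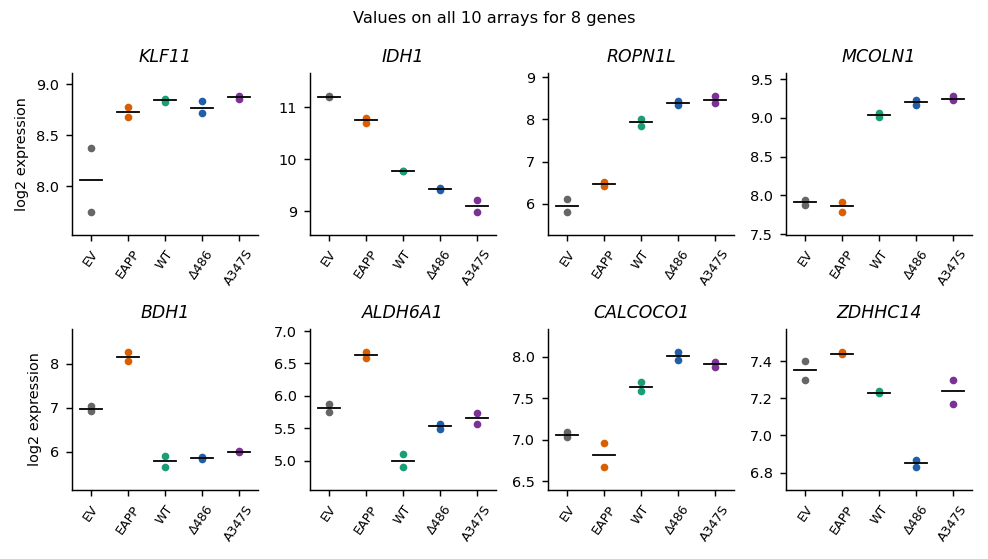
Log2 expression (y) on both arrays of each of the 5 groups (x) for 8 genes; points are arrays and bars group means, and each panel has its own scale. KLF11 overlaps between EAPP and Δ486, MCOLN1 places EAPP beside empty vector, IDH1 and ROPN1L place it between empty vector and Δ486 and nearer to empty vector, BDH1 and ALDH6A1 place EAPP above every other array, and CALCOCO1 and ZDHHC14 place Δ486 beyond every other array. In CALCOCO1 the A347S arrays lie close to Δ486.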

How the data were processed

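Affymetrix Human Gene 1.0 ST arrays were background-subtracted and normalized by the authors with Robust Multiarray Analysis. The deposited values are log2 expression per transcript cluster, from 1.85 to 14.56, and the processing notes name Partek 6.6. For the array annotation, a genome build was not given in the sources used here. Arrays give no counts, so their number, 2 per group, limits the precision.

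Gene names came from GEO's platform annotation. Of 28869 clusters 20961 had a symbol and were tested, 1731 of them with several symbols, which were counted and never named; 19199 matched RefSeq by gene number and 1 name was updated. A gene was represented by its brightest cluster. With limma 3.58.1 (R 4.3.3) a mean per group was estimated from the 10 arrays together (5 residual and 4.54 prior degrees of freedom, median standard error 0.0954), with Benjamini-Hochberg adjustment over all clusters tested. The study's results text gives a 1.5-fold threshold and its methods a log2 change of 1.5. The genes named are KLF11, the 12 largest differences each way, and, from each of 31 lists, up to 3 called members taken by smallest p, 76 genes in all; other names complete a list's calls or were chosen after their values were seen. The members and the lists were chosen with earlier results of these data known, and no list was given a test. On simulated data 42% of changes of 1.5-fold and 92% of changes of 2-fold were recovered, with 2 false calls among 20961. A change of 1.5-fold sits on the fold threshold itself, so its share is held down by that cut and does not measure sensitivity. The simulated noise was independent between arrays and held no spread between cultures. The false calls therefore set no bound on those among the 684. Promoter windows came from RefSeq (GRCh38.p14). Alternatives covered threshold, test, scaling, clusters tested, a replicate block and each array left out, its partner then taking its spread from the fit. Figures used matplotlib 3.10.9 in Python 3.11.15. Chromatin immunoprecipitation and qPCR were not analysed here.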

Additional observations from a re-analysis of the deposited data

Results flagged for a closer look

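Clusters without a gene symbol, which the comparison left out, also separated the mutants. When all clusters were fitted together, 68 of 7908 such clusters passed both thresholds, 0.86%, with 29 higher and 39 lower with EAPP and differences from -1.93 to 1.19. In the same fit 665 clusters with a symbol passed, 3.17%. They are flagged because they hold a signal outside the main measurement, and what they measure was not examined.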

How the results depend on the processing

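The count of 684 clusters lay between 675 and 848 when arrays were left out in turn, with 285 to 376 higher and 319 to 530 lower with EAPP, and clusters with an interval inside 1.5-fold numbered 16119 to 17952. At an absolute log2 difference of 1.5 the count was 15, with 1 higher and 14 lower. With the adjusted p alone it was 3148, with 1738 higher and 1410 lower. The methods' t-test on the 4 arrays, adjusted, gave 0 calls in all, 0 higher and 0 lower, with 10800 clusters inside 1.5-fold; unadjusted it gave 255 higher and 295 lower, of which 549 were among the 684. In the brighter clusters alone 8848 lay inside 1.5-fold, fewer since fewer were tested. The titles' replicate numbers did not pair the samples (correlation of deviations -0.348 between Δ486 and EAPP, -0.348 to 0.145 over all pairs of groups). The value between Δ486 and EAPP was the largest in size. Its sign means that Δ486 and EAPP arrays of opposite number tended to deviate together, and the reason was not tested. With the replicate block there were 677 calls (286 higher, 391 lower) and 17928 clusters inside 1.5-fold. The crossed pairing, added after seeing the data, gave 688 calls (289 and 399). Median positions ranged from -0.09 to 0.01 for empty vector, 0.79 to 0.92 for wild type KLF11 and 1.09 to 1.21 for A347S as arrays were left out. With the letters CCCCGCC and CCCCACC the promoter shares were 80.9% for genes higher with EAPP, 40.4% for genes lower and 53% over all, and with calls by the adjusted p alone 85.4% of higher and 61.9% of lower genes held the shorter letters. Of 2041 values of the 76 named genes under alternatives 0 reversed, 188 lost the call and 1 gained it. Without moderation SLC7A11, CTH, CENPE, SP1, CLDN1, KRT19 and H4C8 lost it. The cause of these shifts was not tested. Depth is not defined for arrays, and 5 residual degrees of freedom limit differences near 1.5-fold.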

Other observations

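A further group was made of the genes whose symbol begins with ZNF, most of which encode zinc finger proteins. It was chosen after its values were seen, so it has no test. Of 493 such genes 43 were lower, or 8.72%, and 1 was higher, ZNF860, against 1.79% lower and 1.44% higher among the other 17885 genes. The median difference was -0.09 in the group and -0.01 outside it, and 306 of 493 lay below zero. The number lower was 40 to 46 under the other scalings, with medians from -0.09 to -0.05, and 33 to 57 when an EAPP or a Δ486 array was left out, with 1 to 4 higher. Apart from ZNF204P and ZNF284, the largest were ZNF461, at 6.96 and 6.78 with EAPP against 8.03 and 8.32 with Δ486 (-1.31, standard error 0.11), ZNF615 (-1.28), ZNF530 (-1.22) and ZNF420 (-1.19). For ZNF615 both EAPP arrays lay in the range of endocrine markers (3.38 to 5.96), so the size of its difference is uncertain. Chromosome 19, where many genes of this family lie in clusters, holds 33 of the 43 and 237 of the 493. Family members resemble each other in sequence, and how far probes of one read another was not tested.

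Single genes of the lysosome outside the list in the report were also picked after their values were seen, from a number not counted. They therefore show no direction for lysosomal genes. The 16 lysosomal proteins measured in the list had 1 member higher, 2 lower and a median of -0.11. The cystine exporter CTNS read 7.92 and 7.84 against 9.10 and 9.30 (-1.32, standard error 0.10) and the membrane transporter MFSD1 10.27 and 10.16 against 11.52 and 11.59 (-1.34, standard error 0.09). Progranulin, encoded by GRN, read 9.03 and 8.94 against 9.87 and 9.74 (-0.82, standard error 0.08). The proton pump subunits ATP6V1H, ATP6V1F and ATP6V0B stood at -0.77, -0.72 and -0.60, and the hydrolases LGMN, FUCA1, NEU1 and TPP1 at -0.71, -0.66, -0.62 and -0.61, all past both thresholds. GM2A, an activator of ganglioside breakdown, and ATP6AP1, an accessory pump subunit, went the other way (0.70 and 0.84). Genes of the response to misfolded protein in the endoplasmic reticulum were picked in the same way and stood on both sides. DNAJB9, SERP1, HERPUD1, PPP1R15A and ATF6 were lower with EAPP (-0.76, -0.63, -0.62, -0.62 and -0.60), and the chaperone HYOU1 and the oxidase ERO1A were higher (0.70 and 0.65). Without the second EAPP array DNAJB9, HERPUD1, PPP1R15A, ATF6, NEU1 and TPP1 fell short of the fold, as FUCA1 and ATP6V1H did without the second Δ486 array and ATP6V0B without the first EAPP array.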
